A study of Xenopus laevis with 72 samples.

Results

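The genes described here encode the protein components of the cytoplasmic ribosome in Xenopus laevis embryos. They were taken by name: every entry that starts with rpl or rps directly followed by a digit, together with rplp0, rplp1, rplp2 and rpsa, without the S6 kinases (rps6k) and without names ending in l1. This rule gave 135 of the 39668 entries of the expression tables, 76 for the large subunit and 59 for the small subunit. Of these, 70 were L homeologs, 64 were S homeologs and 1 (rps9) carried neither suffix. The rule also takes a few entries that are not core ribosomal proteins. These are rps19bp1.L, whose mammalian product binds the small-subunit protein RPS19, the paralogs rps27l.L and rps27l.S, and the muscle-type paralogs rpl3l.L and rpl3l.S. They were kept, because the choice was by name. The only rps28 entries among the members are rps28p9.L and rps28p9.S, and what they encode was not examined.

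Each ribosome joins a large subunit, which forms peptide bonds, to a small subunit, which reads the mRNA. In vertebrates, the mRNAs of ribosomal proteins begin with a tract of pyrimidines and are translated or held back together, a feature shared with a few translation factors. The Xenopus egg carries a large store of maternal ribosomes, and the embryo lives on maternal mRNA until its own genome is activated at the mid-blastula transition. Because Xenopus laevis arose by the merging of a pair of ancestral species, most genes exist as an L copy on a long chromosome and an S copy on the matching short chromosome.

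RNA was sequenced from wild-type embryos kept at 18 °C and collected at 5.5, 6.5 and 7.5 hours post fertilisation (hpf), a window that covers genome activation. Embryos were injected at the single-cell stage with 9.2 nl of a 1 mM translation-blocking morpholino whose target was the mRNA of cxxc1 (Cxxc1 MO) or that of kmt2b (Kmt2b MO), which encode proteins of the histone H3K4 methylation machinery, or with a standard control morpholino (Ctrl MO), or were left non-injected (NI Ctrl). Each group and time point was collected from 2 frogs (biological replicates 1 and 2, here frog 1 and frog 2) as 3 sets of 3 pooled embryos, which makes 72 libraries of ribosomal RNA-depleted total RNA. Sets of the same frog share their parents. The fits with both frogs take out the difference in level between the 2 frogs. Their p-values measure the spread between sets within a frog, together with any difference between the frogs in the change itself. From 5.5 to 7.5 hpf such a difference was called for many members, as given below. The p-values do not measure how embryos of other frogs would vary. A morpholino that blocks translation need not lower its target's mRNA: cxxc1.S had a median of 22.1 TPM in Cxxc1 MO and 23.6 TPM in Ctrl MO libraries at 5.5 hpf, and the labels could not be checked in this way. Whole embryos were used, so fewer cells and less RNA per cell cannot be told apart.

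Values are TPM, in which read numbers are divided by transcript length and scaled to a nearly constant sum per library (984999 to 996289 TPM), so that the level of each gene depends on all others and the read depth is unknown. From 18133 to 20351 entries reached 1 TPM per library. Protein-coding entries held 47.9% to 88.4% of the sum, ribosomal RNA entries 0.312% to 17.8% and transfer RNA entries 0.0214% to 25.1%. Tests used limma on log2(TPM + 1), a scale that understates the change of low genes, for the 19544 entries with a mean of at least 1 TPM in both biological replicates, and an entry is called higher or lower where its Benjamini-Hochberg adjusted p over all of them was under 0.05.

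Ribosomal protein mRNAs were abundant in every group. Of the 135 entries, 133 passed the filter, and 128 of these lay above the median tested gene, 76 in the top 10% and 36 in the top 5% by mean TPM. The median mean level was 85.1 TPM for large-subunit members and 87.8 TPM for small-subunit members, against 21.7 TPM for all tested protein-coding genes. The 2 entries that did not pass were rpl3l.L and rpl3l.S, with at most 0.179 and 0.143 TPM in any library.

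The highest members were small-subunit genes. rps20.L (chromosome 6L, 123533284 to 123548995, assembly Xenopus_laevis_v10.1), whose protein sits in the head of the small subunit, averaged 428 TPM over the 72 libraries and ranged from 265 to 664 TPM. It was followed by rps18.L (mean 287 TPM), rps27.L (206 TPM), rps29.S (204 TPM) and rps27.S (199 TPM). Differences between rps27.L, rps29.S and rps27.S were small beside their ranges, which ran from 139 to 309, from 101 to 442 and from 122 to 271 TPM. At the low end, rps25.L averaged 16.5 TPM, rpl36.S 15.0 TPM, rps9.L 12.4 TPM, rps19.L 11.3 TPM and rps27l.S 3.27 TPM.

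The summed TPM of all members was between 8547 and 16233 per library. At 5.5 hpf in frog 1, it was 9086 ± 842 (SD, n = 3) in Ctrl MO, 10303 ± 502 in NI Ctrl, 10908 ± 403 in Cxxc1 MO and 11468 ± 1132 in Kmt2b MO. In frog 2, it was 11794 ± 433 in Ctrl MO, 11869 ± 1728 in NI Ctrl, 14430 ± 324 in Cxxc1 MO and 14037 ± 891 in Kmt2b MO. In both frogs the 3 sets of either knockdown lay above all 3 Ctrl MO sets at this time, whereas 1 NI Ctrl set of frog 2 reached into the range of Kmt2b MO. From 5.5 to 7.5 hpf the sums rose in frog 1, to 13271 ± 1192 in Ctrl MO, and did not rise in frog 2, where Ctrl MO was at 11247 ± 129 at 7.5 hpf.

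**Figure D1:**
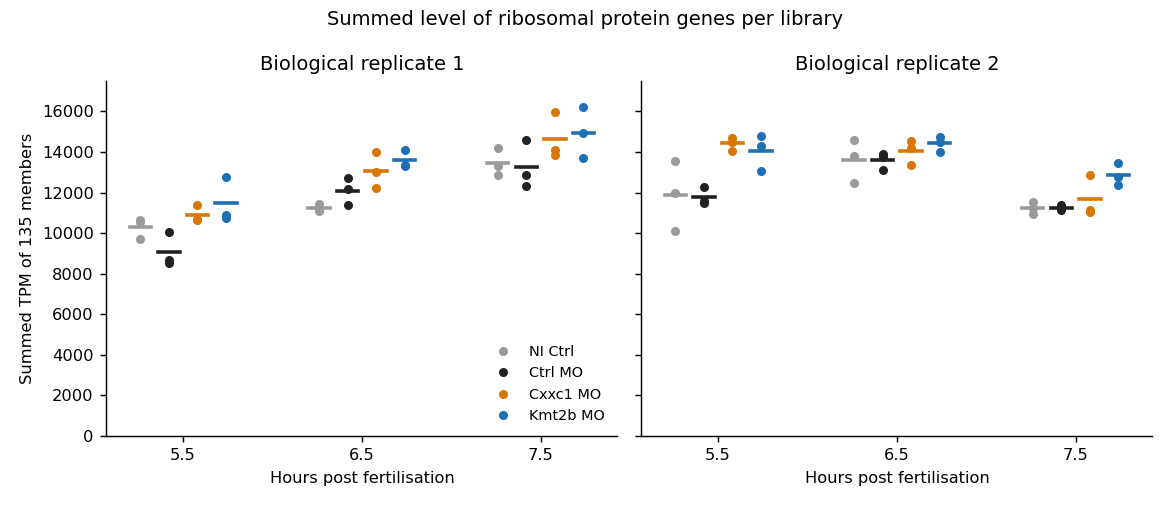
Summed TPM of the 135 members (vertical axis) in each library against hours post fertilisation, with biological replicate 1 on the left and 2 on the right; points are sets of 3 embryos and bars the mean of 3 sets. Both knockdowns lie above Ctrl MO at 5.5 hpf in both frogs, and the sums rise with time in biological replicate 1, from 8547 to 10057 in Ctrl MO at 5.5 hpf to 12338 to 14614 at 7.5 hpf, but not in biological replicate 2.

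The first comparison asked how the level of these genes differed after knockdown of Cxxc1 or Kmt2b. At 5.5 hpf ribosomal protein genes were higher in both knockdowns than in Ctrl MO. In Cxxc1 MO, 24 of 133 were called higher and 0 lower, where 0.363% of all tested genes were higher and 0.0153% lower. In Kmt2b MO, 40 were called higher and 0 lower, against 0.66% and 0.0512% of all tested genes. At an unadjusted p under 0.05, 0 members were lower in either knockdown, where 0.952% (Cxxc1 MO) and 2.07% (Kmt2b MO) of all tested genes were. The members therefore made up 24 of the 71 genes called higher in Cxxc1 MO and 40 of the 129 called higher in Kmt2b MO.

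The shift at 5.5 hpf was broad and small. In Cxxc1 MO, 131 of 133 members had a positive log2 change, with a median of 0.27, against a median of 0.03 over all tested genes. In Kmt2b MO, 127 were positive, again with a median of 0.27, against 0.00 over all genes. Both comparisons use the same Ctrl MO libraries and are not independent of each other. Both subunits and both homeolog classes took part: 16 of 74 large-subunit and 8 of 59 small-subunit members were called higher in Cxxc1 MO, and 26 and 14 in Kmt2b MO. Of 69 tested L homeologs 10 and 18 were called, and of 63 tested S homeologs 13 and 21, in Cxxc1 MO and Kmt2b MO, and the entry without a suffix was called in both.

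Counts at 5.5 hpf depended on the libraries and the control, while the direction did not. Within a single frog, the median change of the members was 0.27 in both biological replicates for Cxxc1 MO, and 0.31 and 0.23 for Kmt2b MO, although only 1 member passed the test in each frog and knockdown, where 0.0205% and 0.0665% (Cxxc1 MO, frogs 1 and 2) and 0.0153% and 0.087% (Kmt2b MO) of all tested genes were called. Against NI Ctrl, 8 members were higher in Cxxc1 MO and 18 in Kmt2b MO, with medians of 0.16 and 0.18, where 0.936% and 0.957% of all tested genes were higher. Fits with only the 2 compared groups gave 13 and 21 members (0.215% and 0.374% of all genes), and fits with all 72 libraries 10 and 19 (0.138% and 0.251%). The count for Cxxc1 MO was 13 without set 2 of Cxxc1 MO in frog 1 and 13, 12 and 13 without sets 1, 2 and 3 of Cxxc1 MO in frog 2; it was 12 and 12 without sets 2 and 3 of Ctrl MO in frog 1, and 11 and 15 without sets 2 and 3 of Ctrl MO in frog 2. The count for Kmt2b MO was 22 without set 2 of Kmt2b MO and 22 without set 3 of Ctrl MO in frog 1, and 23, 25 and 25 without set 1 or 2 of Kmt2b MO or set 2 of Ctrl MO in frog 2. Over all single libraries left out, the median change stayed between 0.25 and 0.30 for Cxxc1 MO and between 0.23 and 0.30 for Kmt2b MO. The shares of all tested genes called with a library left out are not given. Whether the member counts moved with those of all genes was not tested.

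The share of ribosomal RNA entries moved with the groups at 5.5 hpf. It averaged 11.9%, 8.96%, 13.0% and 12.7% of TPM in Ctrl MO, Cxxc1 MO, Kmt2b MO and NI Ctrl of frog 1, and 5.12%, 1.38%, 2.37% and 7.72% in frog 2. With TPM rescaled over protein-coding entries alone, 29 members were higher in Cxxc1 MO and 59 in Kmt2b MO, with medians of 0.23 and 0.27 and 0 lower in each, where 0.484% and 1.46% of the 16955 entries tested on that scale were higher and 0.0413% and 0.218% lower. The part of ribosomal RNA in the difference was not tested beyond this rescaling.

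**Figure D2:**
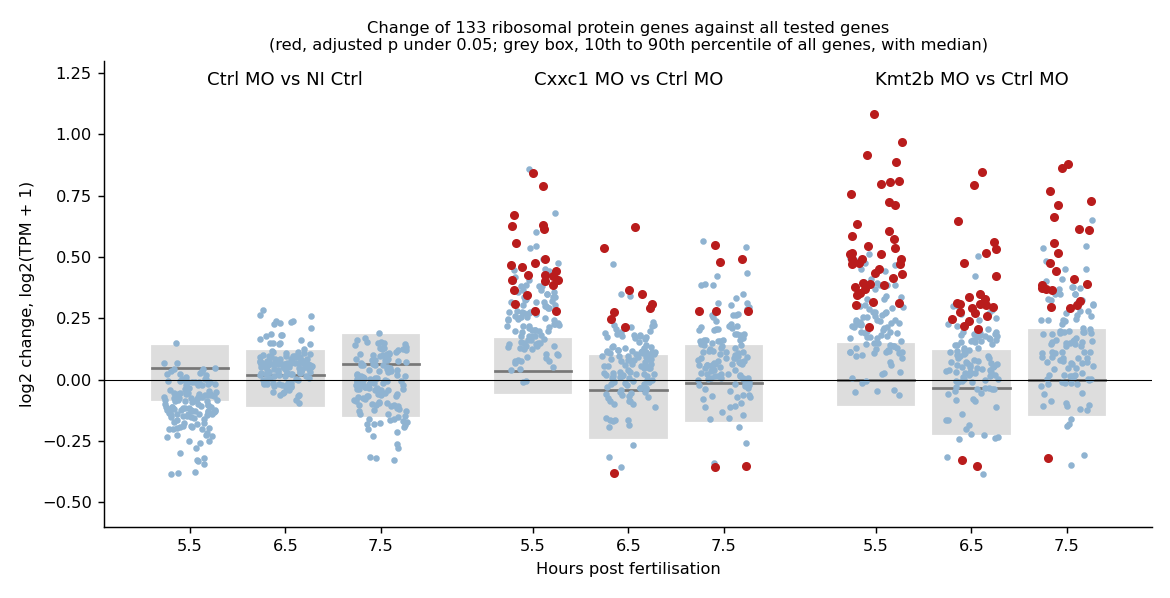
Change in log2(TPM + 1) of the 133 tested members (points; red where the adjusted p was under 0.05) in each contrast and time point, with the 10th to 90th percentile of all 19544 tested genes as a grey box and their median as a line. The points of both knockdowns at 5.5 hpf lie mostly above the box, with 24 and 40 red points, and the points of Ctrl MO against NI Ctrl hold no red point.

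The effect of injection itself was read from the controls. Comparing Ctrl MO with NI Ctrl, 0 members were called by limma at 5.5, 6.5 or 7.5 hpf, where 0.0307%, 0.0307% and 0.0102% of all tested genes were called. At an unadjusted p under 0.05, 11 of 133 members were lower and 0 higher at 5.5 hpf, where 1.06% of all tested genes were lower and 6.79% higher. The same cut gave 5 higher and 0 lower members at 6.5 hpf (2.03% and 1.15% of all genes). At 7.5 hpf it gave 5 and 2 (5.42% and 1.66%). The median log2 change of the members was -0.10 at 5.5 hpf (17 of 133 positive, against 0.05 over all genes), 0.06 at 6.5 hpf and -0.01 at 7.5 hpf. The Ctrl MO libraries therefore lay slightly below NI Ctrl at 5.5 hpf, without a call, and the medians of the knockdowns were 0.27 against Ctrl MO but 0.16 and 0.18 against NI Ctrl. The decrease was mostly in frog 1 (median -0.18, against 0.00 in frog 2).

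Later, fewer members were called in either knockdown. At 6.5 hpf, 9 members were higher and 1 lower in Cxxc1 MO, where 0.573% and 0.43% of all tested genes were, and 24 were higher and 2 lower in Kmt2b MO, where 1.46% and 0.788% were. At 7.5 hpf, the counts were 6 higher and 2 lower in Cxxc1 MO (0.302% and 0.235% of all genes) and 22 higher and 1 lower in Kmt2b MO (1.03% and 0.752%). The median change of the members was 0.06 and 0.09 in Cxxc1 MO at 6.5 and 7.5 hpf (all genes -0.04 and -0.01), and 0.10 and 0.17 in Kmt2b MO (all genes -0.03 and 0.00). Whether the changes differed between time points was not tested.

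Large-subunit genes, which are 74 of the 133 tested members, accounted for 7 of the 9 and 6 of the 6 higher members in Cxxc1 MO, and 18 of the 24 and 18 of the 22 in Kmt2b MO, at 6.5 and 7.5 hpf. A difference between the subunits was not tested. L homeologs accounted for 6 and 4 of the higher members in Cxxc1 MO and for 14 and 13 in Kmt2b MO. At 6.5 hpf the Cxxc1 MO total of 10 was 6 without set 3 of Cxxc1 MO or set 3 of Ctrl MO of frog 2. At 7.5 hpf the total of 8 was 5 and 4 without sets 1 and 3 of Cxxc1 MO, and 4 and 5 without sets 1 and 3 of Ctrl MO, of frog 1, and the Kmt2b MO total of 23 was 15 without set 1 of Kmt2b MO of frog 1. Shares of all tested genes with these libraries left out are not given, so whether all calls moved alike was not tested. On the protein-coding scale at 7.5 hpf, Cxxc1 MO had 19 members higher and 2 lower (1.29% and 0.955% of all entries). Kmt2b MO had 47 and 1 on that scale (5.15% and 1.57%).

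Some members were called at all 3 time points, which do not share libraries but come from the same frogs. In Kmt2b MO these were 14 genes, all higher, which included rplp0.L, rpl4.S, rpl6.L, rpl6.S, rpl11.L, rpl13a.S, rpl18.L, rpl19.L and rpl30.S of the large subunit, and rps3.S, rps6.L, rps9 and rps23.L of the small subunit. In Cxxc1 MO they were 3, rplp0.L, rpl18.L and rpl19.L. In all, 50 members were called higher at some time in Kmt2b MO and 28 in Cxxc1 MO. At each time alone, 0.66% to 1.46% of all tested genes were called higher in Kmt2b MO and 0.302% to 0.573% in Cxxc1 MO. The shares of all tested genes called at all 3 times or at some time are not given. The only members called lower at any time, in either knockdown, were rpl32.L and rps25.S.

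rplp0.L (chromosome 1L, 164248303 to 164253942) encodes the base of the ribosomal stalk, which recruits translation factors. At 5.5 hpf its 3 Ctrl MO sets were at 52.7, 39.3 and 47.8 TPM in frog 1 and at 55.5, 56.8 and 57.4 TPM in frog 2. The Cxxc1 MO sets were at 65.0, 80.3 and 75.3, and at 87.1, 88.2 and 79.0 TPM, and the Kmt2b MO sets at 78.5, 92.3 and 86.4, and at 105, 94.3 and 88.0 TPM. All 12 knockdown sets were above all 6 Ctrl MO sets. On the log2(TPM + 1) scale Cxxc1 MO was 1.53-fold higher (log2 0.61 ± 0.07 SE, limma, adjusted p = 7.75e-05), while Kmt2b MO was 1.75-fold higher (log2 0.81 ± 0.07 SE, adjusted p = 1.5e-06). NI Ctrl sets, from 45.2 to 60.2 TPM, overlapped Ctrl MO.

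By 7.5 hpf the level of rplp0.L had fallen in every group, and the knockdowns were still above the control. Ctrl MO sets were at 30.4, 35.7 and 36.8 TPM in frog 1 and at 37.6, 32.9 and 44.7 TPM in frog 2. Cxxc1 MO sets were at 53.5, 55.2 and 67.8, and at 46.2, 43.3 and 56.6 TPM, and Kmt2b MO sets at 67.4, 58.2 and 47.6, and at 75.8, 78.0 and 77.3 TPM. Kmt2b MO did not overlap Ctrl MO (log2 0.86 ± 0.12 SE, adjusted p = 0.000307), and Cxxc1 MO overlapped it by 1 set of frog 2 (0.55 ± 0.12, adjusted p = 0.0337). Its homeolog rplp0.S was at 37.7 to 59.9 TPM in Ctrl MO, 58.8 to 68.1 TPM in Cxxc1 MO and 65.5 to 76.0 TPM in Kmt2b MO at 5.5 hpf.

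rps9, the entry without a homeolog suffix (chromosome 7S, 97843870 to 97851396), encodes a small-subunit protein near the mRNA entry site. At 5.5 hpf it was at 44.9, 28.8 and 29.0 TPM in Ctrl MO of frog 1 and at 43.4, 40.9 and 51.5 TPM in frog 2. Cxxc1 MO gave 50.7, 72.8 and 71.2, and 69.7, 87.7 and 76.0 TPM, and Kmt2b MO 74.7, 86.0 and 68.5, and 97.8, 97.3 and 81.1 TPM. Kmt2b MO sets lay above every Ctrl MO set, and Cxxc1 MO sets did so within each frog. Its log2 change was the largest called among members, with 0.84 ± 0.13 (SE, adjusted p = 0.00258) after Cxxc1 knockdown, compared with 1.08 ± 0.13 (adjusted p = 8.66e-05) after Kmt2b knockdown. It was 0.62 ± 0.12 and 0.85 ± 0.12 at 6.5 hpf (adjusted p = 0.0104 and 0.000223), and 0.57 ± 0.14 and 0.88 ± 0.14 at 7.5 hpf (adjusted p = 0.0911 and 0.00122).

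The other rps9 entries were lower in level and less often called. rps9.S (chromosome 7S, 102549079 to 102555855) was called at 5.5 hpf only, with log2 changes of 0.79 ± 0.15 in Cxxc1 MO and 0.80 ± 0.15 in Kmt2b MO (adjusted p = 0.0145 and 0.00945). rps9.L (chromosome 7L, 123038563 to 123043851) was called at 5.5 hpf in Kmt2b MO (0.97 ± 0.22, adjusted p = 0.039), and its change of 0.86 ± 0.22 in Cxxc1 MO had an adjusted p of 0.106. The 3 entries are copies of 1 gene, and reads may have been split among them.

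rps23.L (chromosome 1L, 197501412 to 197505297) encodes a protein of the decoding centre. At 5.5 hpf Ctrl MO sets were at 49.8, 38.0 and 25.8 TPM in frog 1 and 64.8, 55.4 and 64.2 TPM in frog 2, a wide spread. Kmt2b MO sets were at 70.7, 83.0 and 68.1, and at 116, 116 and 100 TPM, all above Ctrl MO, and Cxxc1 MO sets, from 58.9 to 116 TPM, were above Ctrl MO within each frog. For Kmt2b MO the log2 change was 0.92 ± 0.13 (SE, adjusted p = 0.000718), compared with 0.67 ± 0.13 (adjusted p = 0.0174) for Cxxc1 MO. In Kmt2b MO it was 0.65 ± 0.13 at 6.5 hpf and 0.73 ± 0.14 at 7.5 hpf (adjusted p = 0.00745 and 0.00556). In Cxxc1 MO it was 0.47 ± 0.13 and 0.54 ± 0.14 (adjusted p = 0.104 and 0.101).

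rpl18.L (chromosome 7L, 110119224 to 110126479) and rpl19.L (chromosome 9_10L, 2490856 to 2494490) are large-subunit genes. At 7.5 hpf rpl19.L was at 78.6, 98.3 and 88.8 TPM in Ctrl MO of frog 1 and at 66.6, 79.5 and 73.2 TPM in frog 2. Kmt2b MO sets were at 154, 128 and 126, and at 119, 101 and 118 TPM, and Cxxc1 MO sets at 120, 119 and 137, and at 93.4, 101 and 110 TPM. Every Kmt2b MO set lay above every Ctrl MO set, and Cxxc1 MO did so within each frog. The log2 changes of rpl19.L at 5.5, 6.5 and 7.5 hpf were 0.60 ± 0.06, 0.52 ± 0.07 and 0.61 ± 0.07 (SE) in Kmt2b MO, and 0.42 ± 0.06, 0.35 ± 0.07 and 0.48 ± 0.07 in Cxxc1 MO, all called. Those of rpl18.L were 0.51 ± 0.09, 0.53 ± 0.06 and 0.77 ± 0.11 in Kmt2b MO, and 0.47 ± 0.09, 0.36 ± 0.06 and 0.49 ± 0.11 in Cxxc1 MO, also all called.

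The 2 members called lower than Ctrl MO were called so only after 5.5 hpf. Over time, from 5.5 to 7.5 hpf, rps25.S was called higher in NI Ctrl and Ctrl MO, and rpl32.L in Ctrl MO. Neither was called over time in the knockdowns. rpl32.L (chromosome 4L, 131294353 to 131301458), a large-subunit gene, was at 103, 87.3 and 96.9 TPM in Ctrl MO of frog 1 at 6.5 hpf and at 87.9, 111 and 104 TPM in frog 2. Cxxc1 MO sets were at 67.7, 72.4 and 72.7, and at 85.6, 71.5 and 81.6 TPM, and Kmt2b MO sets at 78.5, 70.8 and 72.9, and at 76.3, 75.9 and 85.8 TPM. All knockdown sets were below all Ctrl MO sets, while NI Ctrl sets, from 69.8 to 113 TPM, overlapped both. The log2 change was -0.38 ± 0.07 (SE) in Cxxc1 MO and -0.35 ± 0.07 in Kmt2b MO (adjusted p = 0.00771 and 0.00784). At 7.5 hpf it was -0.36 ± 0.08 and -0.31 ± 0.08 (adjusted p = 0.0439 and 0.0528), and at 5.5 hpf 0.14 ± 0.12 and -0.05 ± 0.12, neither called.

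rps25.S (chromosome 7S, 70410365 to 70414656) encodes a small-subunit protein used by some viral internal ribosome entry sites. At 7.5 hpf it was at 255, 242 and 250 TPM in Ctrl MO of frog 1 and at 155, 171 and 160 TPM in frog 2. Cxxc1 MO sets were at 186, 202 and 206, and at 116, 120 and 140 TPM, and Kmt2b MO sets at 186, 206 and 194, and at 137, 132 and 128 TPM. Within each frog both knockdowns lay below Ctrl MO, and NI Ctrl sets (254, 247 and 268, and 180, 159 and 156 TPM) lay with Ctrl MO. The log2 change was -0.35 ± 0.05 (SE) in Cxxc1 MO and -0.32 ± 0.05 in Kmt2b MO (adjusted p = 0.00119 in both). At 6.5 hpf it was -0.27 ± 0.07 and -0.33 ± 0.07 (adjusted p = 0.104 and 0.0166).

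**Figure D3:**
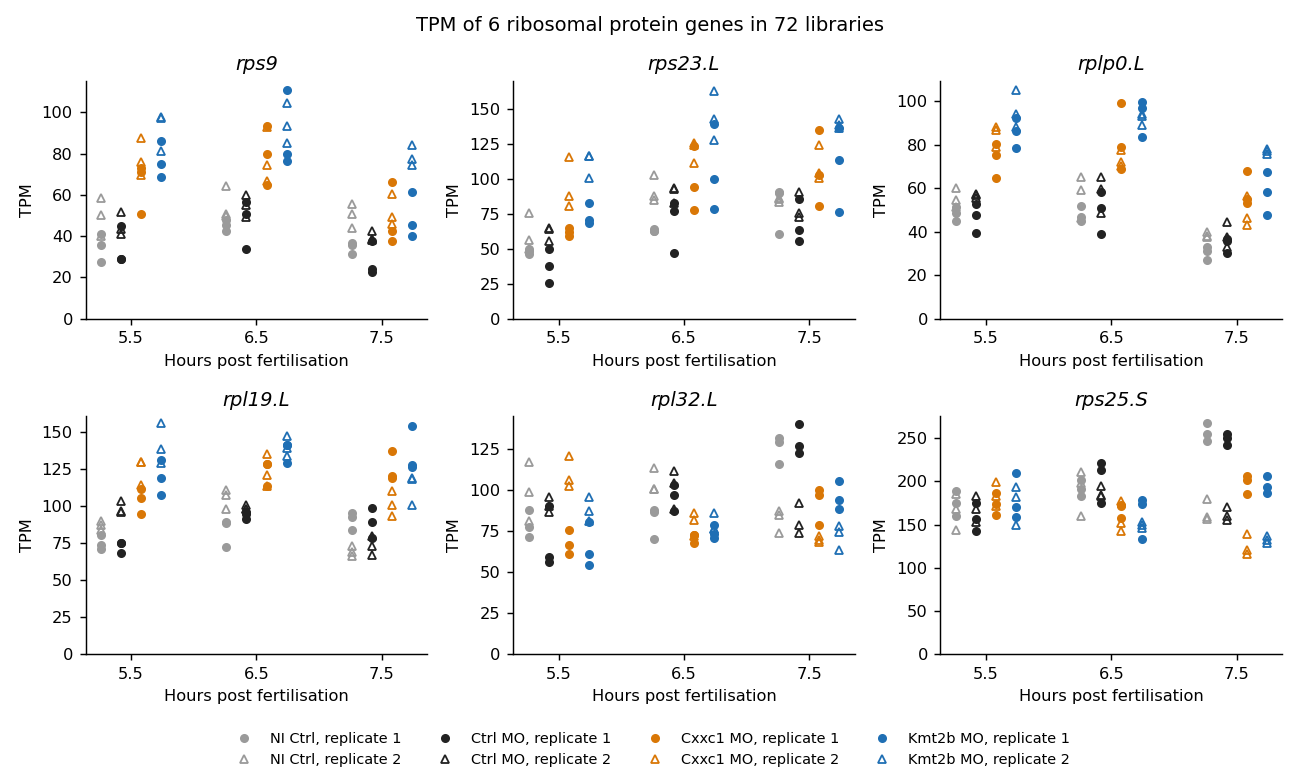
TPM of rps9, rps23.L, rplp0.L, rpl19.L, rpl32.L and rps25.S (vertical axes, each from 0) in the 72 libraries against hours post fertilisation, with filled circles for biological replicate 1, open triangles for biological replicate 2 and a colour for each injection group. The first 4 genes are higher in the knockdowns, for rplp0.L at 5.5 hpf by 1.53- and 1.75-fold, and the last 2 are lower in the knockdowns at 7.5 hpf within each frog.

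Related gene groups were read at 5.5 hpf in the same fits. Of 5 tested entries for ribosomal proteins with other names (such as rack1 and fau), 1 was called higher in each knockdown, with medians of 0.33 in Cxxc1 MO and 0.46 in Kmt2b MO. Of 93 mitochondrial ribosomal protein genes, 0 and 1 were called higher and 0 lower (medians 0.08 and 0.07). Of 99 ribosome assembly factor genes, 0 were called in either direction (medians 0.03 and 0.00). Of 23 entries for translation factors and other mRNAs known in vertebrates to begin with a pyrimidine tract, such as eef1a1, eef2, pabpc1 and tpt1, 1 was called higher in each knockdown (medians 0.07 and 0.03). Of 20 entries for early zygotic genes such as sia1, nodal5 and gsc, 0 were called at 5.5 hpf, and at 7.5 hpf the called falls numbered 4 in Cxxc1 MO and 10 in Kmt2b MO. The differences between these groups and the members were not tested.

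The second comparison followed the genes over genome activation within each injection group. From 5.5 to 7.5 hpf most tested genes lost TPM share, while ribosomal protein genes, with both frogs fitted together, were called in both directions. In NI Ctrl, 44 members rose and 24 fell, where 13.9% and 77.7% of all tested genes did. In Ctrl MO 60 rose and 23 fell (14.2% and 78.2% of all genes), in Cxxc1 MO 37 and 30 (13.1% and 79.3%), and in Kmt2b MO 46 and 25 (13.6% and 78.2%). The median log2 change of the members was 0.07, 0.20, 0.00 and 0.06 in NI Ctrl, Ctrl MO, Cxxc1 MO and Kmt2b MO, against -0.92, -0.91, -0.97 and -0.91 over all genes.

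The balance of rises and falls depended on the frog and on the scale. In frog 1 alone, 73 members rose and 20 fell in NI Ctrl (14.9% and 71.3% of all genes), and in frog 2 alone 19 rose and 45 fell (12.3% and 79.4%). In Ctrl MO, Cxxc1 MO and Kmt2b MO of frog 1, 87, 82 and 71 rose and 17, 15 and 19 fell, where 14.9%, 13.4% and 14.5% of all genes rose and 71.5%, 73.2% and 70.9% fell. In frog 2, 24, 5 and 18 rose and 49, 79 and 59 fell, where 12.6%, 12.1% and 12.2% rose and 80%, 81.1% and 80.9% fell. By a test of the interaction of time and frog, chosen after seeing the data, the change differed for 60, 84, 97 and 73 members in NI Ctrl, Ctrl MO, Cxxc1 MO and Kmt2b MO, where it differed for 53%, 57.5%, 53.5% and 65.1% of all genes. In Cxxc1 MO, falls also outnumbered rises without set 1, 2 or 3 of 5.5 hpf (29 rises and 33 falls, 31 and 32, and 28 and 31) or without set 2 or 3 of 7.5 hpf (29 and 32, and 29 and 38) of frog 1. The shares of all genes in those fits are not given.

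The transfer RNA share of TPM moved with the frog and the time. At 7.5 hpf it was 4.50% to 6.64% on average in the 4 groups of frog 1 and 16.9% to 21.2% in frog 2, and the protein-coding share was 65.1% to 67.5% and 52.4% to 56.1%. With TPM rescaled over protein-coding entries, the members rose in both frogs: in NI Ctrl 95 rose and 12 fell in frog 1 (8.42% and 76% of the 16955 entries tested), and 99 rose and 6 fell in frog 2 (8.36% and 79.9%). With both frogs together on that scale, 103 rose and 9 fell in NI Ctrl (8.72% and 81.5% of all entries), 107 and 10 in Ctrl MO (8.46% and 82.6%), 102 and 12 in Cxxc1 MO (7.93% and 82.8%), and 103 and 7 in Kmt2b MO (8.89% and 80.1%). With each library centred on its median tested gene, 122, 121, 117 and 122 members rose and 3, 4, 6 and 2 fell in NI Ctrl, Ctrl MO, Cxxc1 MO and Kmt2b MO. Of all tested genes 26.1%, 25.8%, 25.3% and 25.8% rose and 51.8%, 51.6%, 51.3% and 50.5% fell on that scale. The summed share of members among protein-coding TPM went from 1.39% to 2.08% in NI Ctrl of frog 1 and from 1.47% to 2.08% in frog 2. Direction on the TPM scale is therefore relative to the other RNA classes of a library.

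**Figure D4:**
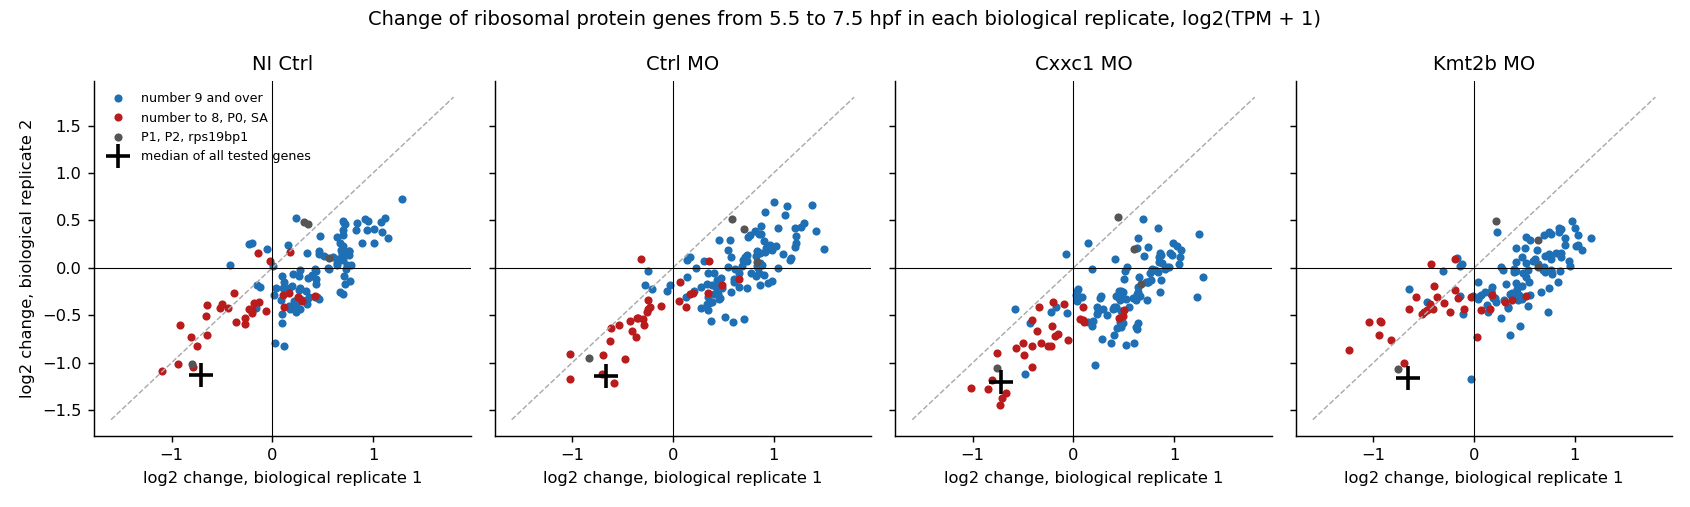
Change in log2(TPM + 1) of the 133 tested members from 5.5 to 7.5 hpf in biological replicate 1 (horizontal axis) and 2 (vertical axis), 1 panel per injection group, coloured by the number in the gene name; the cross is the median of all tested genes and the dashed line marks equal change. Nearly all members lie above and to the right of the cross, members with a number to 8, P0 or SA (red) lie to the lower left, and most points lie below the dashed line, that is lower in biological replicate 2.

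On the TPM scale, with both frogs fitted together, some members changed alike in all 4 injection groups. Of the 133, 30 rose in all 4 injection groups, 21 fell in all 4, 37 were called in none, and 0 were called in opposite directions. These counts do not carry over to each frog or scale. Fewer than 30 members rose in each group of frog 2 alone. Fewer than 21 fell in each group on the protein-coding scale or with centring. Which of the 30 and the 21 kept their call there is not given. In each group alone, 13.1% to 14.2% of all tested genes rose and 77.7% to 79.3% fell. The share of all tested genes called in all 4 groups is not given, so these counts have no direct background. The groups do not share libraries, but they share frogs. The 21 that fell included rpl3.L, rpl4.L, rpl4.S, rpl5.L, rpl6.L, rpl7.L, rpl8.L, rpl8.S, rplp0.L and rplp0.S of the large subunit, rps3a.L, rps3a.S, rps4x.L, rps4x.S, rps6.L, rps6.S, rpsa.L and rpsa.S of the small subunit, and rps19bp1.L. Ribosomal proteins were numbered by their place on gels, so that low numbers tend to be large proteins. Grouped after these values had been seen, 31 tested members with a number to 8, P0 or SA held 20 of the 21 falls and 0 of the 30 rises, and 98 members with a higher number held 28 rises and 0 falls, the remaining 2 rises being rplp2.L and rplp2.S. In NI Ctrl alone, 0 of the 31 rose and 22 fell, and 41 of the 98 rose and 1 fell. Of all tested genes 13.9% rose and 77.7% fell there, so falls among the 31 were not above that share. The median change of the 31 was -0.34 and that of the 98 was 0.21 in NI Ctrl. Both were above the negative median of all tested genes given earlier. No test is given for this grouping. Gene spans, introns included, had a median of 6906 bases for the 21 (5107 to 12662) and 6376.5 bases for the 30 (2599 to 24775). Transcript length was not examined.

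rpl4.S (chromosome 3S, 36998877 to 37006726), which encodes a large-subunit protein with a loop in the exit tunnel, showed the largest fall in NI Ctrl. In NI Ctrl embryos of frog 1 it stood at 148, 137 and 152 TPM at 5.5 hpf and at 71.1, 75.4 and 57.5 TPM at 7.5 hpf. In frog 2 it stood at 205, 196 and 173 and then at 99.0, 78.5 and 91.4 TPM. The times did not overlap in either frog. The log2 change was -1.09 ± 0.09 (SE) in NI Ctrl (adjusted p = 1.43e-09), -1.09 ± 0.09 in Ctrl MO, -1.06 ± 0.11 in Cxxc1 MO and -0.79 ± 0.08 in Kmt2b MO. It was close to the median change of all tested genes.

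rpsa.L (chromosome 4L, 112486293 to 112493198), the small-subunit protein also known as a laminin receptor, behaved alike. In NI Ctrl it went from 55.5, 54.8 and 74.3 TPM to 30.8, 35.2 and 28.2 TPM in frog 1, and from 93.6, 89.9 and 76.6 to 51.6, 35.5 and 41.4 TPM in frog 2, with no overlap within a frog. The log2 changes of rpsa.L were -0.98 ± 0.11 (SE), -0.91 ± 0.11, -1.09 ± 0.13 and -1.05 ± 0.13 in NI Ctrl, Ctrl MO, Cxxc1 MO and Kmt2b MO, and those of rpsa.S were -0.68, -0.72, -1.04 and -0.75. rpl3.L, a gene of the peptidyl transferase centre, fell by 0.92, 0.90, 1.00 and 0.85 on the log2 scale.

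On the TPM scale, with both frogs fitted together, the stalk genes split in direction. In NI Ctrl the falls of rplp0.L and rplp0.S were smaller than that of the median tested gene. Their direction on the other scales is not given. While rplp0.L and rplp0.S fell (log2 -0.58 and -0.52 in NI Ctrl), their partners rplp2.L and rplp2.S, which form the flexible part of the stalk, rose in all 4 groups (0.40 and 0.41 in NI Ctrl, 0.56 and 0.55 in Ctrl MO, 0.40 and 0.49 in Cxxc1 MO, 0.46 and 0.35 in Kmt2b MO). rplp1.L rose by a log2 change of 0.33, 0.45 and 0.32 in NI Ctrl, Ctrl MO and Kmt2b MO, and its change of 0.25 in Cxxc1 MO had an adjusted p of 0.0839.

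Among the rises, rps15.L (chromosome 1L, 108182456 to 108185054), a small-subunit gene of the decoding region, was the largest in NI Ctrl. It went from 28.9, 31.2 and 32.5 TPM to 81.0, 72.3 and 77.9 TPM in frog 1, and from 49.6, 38.1 and 33.3 to 67.6, 69.5 and 62.1 TPM in frog 2, with no overlap between times. The log2 change was 1.01 ± 0.13 (SE, adjusted p = 1.06e-06) in NI Ctrl, 1.02 ± 0.15 in Ctrl MO, 0.59 ± 0.18 in Cxxc1 MO and 0.73 ± 0.14 in Kmt2b MO. rps14.L rose by 0.78, 0.91, 0.80 and 0.74, and rps29.S by 0.82, 0.89, 0.59 and 0.71, in the same order. The most abundant member, rps20.L, rose by 0.47 to 0.50 in the 4 groups (adjusted p from 0.000418 to 0.00151), by 0.76 to 0.88 in frog 1 and by 0.05 to 0.18 in frog 2.

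More members were called in the later hour. From 5.5 to 6.5 hpf 10 members rose and 1 fell in NI Ctrl, about the share of all genes (7.62% and 1.25%). In Ctrl MO 36 rose and 0 fell, where 7.47% and 1.52% of all genes did, so the rises were above that share. Like all Ctrl MO changes from 5.5 hpf, this one starts from the libraries that lay slightly below NI Ctrl and served as the knockdown control. It is not independent of those comparisons. Over the same hour 6 rose and 2 fell in Cxxc1 MO (5.03% and 3.84% of all genes), and 7 rose and 1 fell in Kmt2b MO (5.17% and 1.34%). From 6.5 to 7.5 hpf 13 rose and 28 fell in NI Ctrl (11.9% and 78.7%), 8 and 39 in Ctrl MO (12.3% and 79.2%), 8 and 32 in Cxxc1 MO (12% and 78.3%), and 13 and 30 in Kmt2b MO (12.4% and 78.2%).

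Other genes of the pathway were read over the same interval, in which 13.9% of all tested genes rose and 77.7% fell in NI Ctrl. Of 99 ribosome assembly factor genes, 1 rose and 95 fell in NI Ctrl, with a median of -1.03, and 95 to 97 fell in the other groups. Of 93 mitochondrial ribosomal protein genes, 5 rose and 62 fell in NI Ctrl (median -0.42), and of 23 other mRNAs with a pyrimidine tract 2 rose and 17 fell (median -0.68). All 20 entries for early zygotic genes rose in each group, with medians between 3.26 and 3.91. The differences between these groups and the members were not tested.

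L and S homeologs were present at similar overall levels, with large differences for single pairs. Of 55 pairs with both copies tested, 16 had more of the L copy in all 72 libraries, 14 had more of the S copy in all, and 25 were mixed. Over all 4327 tested pairs in the tables, 34.8% had more of the L copy and 30.1% more of the S copy in every library, so that the member counts were not above this background. The 2 copies differed by more than 2-fold on average in 13 pairs (23.6%), against 35.8% of all tested pairs, and the median absolute log2 difference was 0.44, against 0.68. A further 23 members had no partner entry, among them rpl19.L, rpl32.L, rpl3.L, rps18.L and rps29.S. Values of near-identical copies are uncertain where reads could be shared between them.

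The pairs furthest toward S were rps19, rps25, rps12, rps3a and rps9. rps19.S (chromosome 7S, 104058751 to 104066685), mutated in a human congenital anaemia, averaged 131 TPM against 11.3 TPM for rps19.L, a log2 difference of -3.49 that ranged from -4.52 to -2.73 over libraries. rps25.S averaged 178 TPM against 16.5 TPM for rps25.L. For rps12 (46.4 TPM for L, 178 TPM for S) the difference was -2.54 in frog 1 and -1.28 in frog 2. The pairs furthest toward L were rps27l (21.8 against 3.27 TPM), rpl36 (52.2 against 15.0 TPM), rps3 (89.9 against 26.9 TPM), rps20 (428 against 142 TPM) and rps10 (107 against 39.3 TPM).

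**Figure D5:**
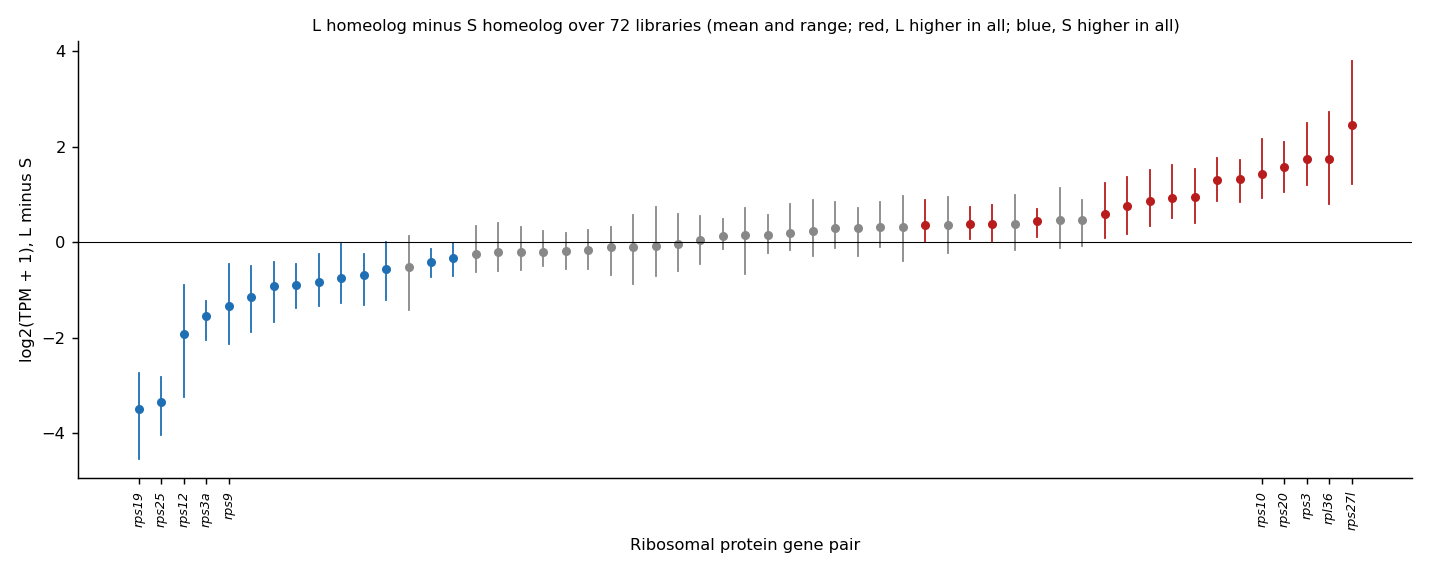
Difference of log2(TPM + 1) between the L and S copy for the 55 tested pairs, ordered by the mean over 72 libraries (points) with the lowest and highest library as a line and names for the 5 pairs at each end; red pairs have more L and blue pairs more S in every library. rps19 lies at -3.49 and rps25 at -3.35, rps27l at 2.46, and 25 pairs cross or touch 0.

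The balance of homeologs moved with time in some of these pairs. From 5.5 to 7.5 hpf the ratio of L to S was called in 19 of 55 pairs in NI Ctrl (7 toward L and 12 toward S), where 50.3% of all pairs were called. It was called in 14, 21 and 23 pairs in Ctrl MO, Cxxc1 MO and Kmt2b MO, where 52.3%, 49.6% and 49.5% of all pairs were. The shares among these pairs, from 25.5% to 41.8%, were below those of all pairs, a difference that was not tested. The pairs that shifted one way in all 4 groups included rpl4 and rps27a, toward L, and rpl6, rpl8, rps4x and rps13, toward S. The largest of these shifts in NI Ctrl was that of rps13, at -0.57 ± 0.06 (SE) on the log2 scale, with -0.55 in frog 1 and -0.58 in frog 2. Its change was -0.52 in Ctrl MO, -0.41 in Cxxc1 MO and -0.26 in Kmt2b MO.

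Many ribosomal protein genes host small nucleolar RNAs (snoRNAs), which guide the modification of ribosomal RNA and are cut from introns. The annotation of the assembly places 123 snoRNA genes inside the span of a member, without strand in the table used here, and 93 of them were tested. From 5.5 to 7.5 hpf, 42 rose and 1 fell in NI Ctrl, 42 and 1 in Ctrl MO, 38 and 1 in Cxxc1 MO and 33 and 1 in Kmt2b MO, with median log2 changes of 1.23, 1.11, 1.12 and 0.98. Of all tested genes, 13.1% to 14.2% rose and 77.7% to 79.3% fell, depending on the group. Among 342 other tested snoRNA genes, 169 rose and 4 fell in NI Ctrl, with a median of 1.16. The share of rises inside members was thus not above that of the other snoRNA genes in NI Ctrl. LOC121399223 and LOC121399224 inside rpl23.S had identical log2 changes and SE in each group, so their rise is counted more than once. In the knockdown contrasts 0 of the 93 were called, other than 1 lower in Kmt2b MO at 5.5 hpf.

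The 3 snoRNA genes with the largest rise in NI Ctrl were LOC121393471 inside rps13.S, LOC121397850 inside rpl7a.S and LOC121396362 inside rpl17.L, with log2 changes of 4.15 ± 0.78 (SE), 3.82 ± 0.72 and 3.73 ± 0.87. The hosts changed by 0.37, -0.09 and -0.02. LOC121393471 (chromosome 4S, 22793919 to 22794010) was listed at 10.9, 0 and 0 TPM at 5.5 hpf and at 23.2, 46.5 and 20.3 TPM at 7.5 hpf in frog 1, and at 0, 8.59 and 0 and then 61.8, 35.6 and 61.6 TPM in frog 2. Sets at 0 make such changes depend on the pseudocount, and the fragment size of the libraries limits what is seen of short RNAs. In Ctrl MO, Cxxc1 MO and Kmt2b MO the change of LOC121393471 was 2.47 ± 0.86, 2.74 ± 0.79 and 3.81 ± 0.75, called in each. That of LOC121397850 was 0.97, 0.98 and -0.07 in the same order, called in none of them. LOC121396362 changed by 2.00, 1.86 and 1.44, called in Ctrl MO only.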

How the data were processed

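Paired reads of rRNA-depleted, strand-specific libraries were quantified by the authors against Xenbase transcripts of the v10.1 assembly using kallisto 0.48, summed per gene with tximport and deposited as TPM, 1 table for each biological replicate. They tested counts with DESeq2 1.42.1 in R 4.3.2. TPM keeps neither counts nor depth, so that test was not repeated and no counting interval is given; the only check on precision is the spread between sets. No library repeated the values of another.

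Here, log2(TPM + 1) of entries with a mean of at least 1 TPM in both tables was fitted in R 4.3.3 by limma 3.58.1, using lmFit and then eBayes with a mean-variance trend. Injection contrasts used the 24 libraries of a time point with biological replicate as a covariate (19 residual degrees of freedom), and time changes the 18 libraries of an injection group (14). The Benjamini-Hochberg adjustment of p-values ran over all tested entries, with a threshold of 0.05. Fits within a biological replicate used 12 and 9 libraries, and the difference between biological replicates was tested as an interaction. Homeolog ratios were tested on the difference of log2(TPM + 1) over 4327 pairs. Gene kinds and coordinates came from RefSeq's table for Xenopus_laevis_v10.1. The fits were tested on simulated data with noise drawn separately for each gene. An added log2 change of 0.3 was recovered in 52.2% of changed genes for Kmt2b MO against Ctrl MO at 5.5 hpf. For NI Ctrl from 5.5 to 7.5 hpf it was 44.8%. At a change of 0.5 these shares were 91% and 80.6%. Shifts shared by many genes of a library were not simulated. A difference between the frogs in the change was not simulated either, and few genes were changed, whereas most were called over time. The shares for the time fit therefore need not hold for the real data. Alternatives were a pseudocount of 0.1, no filter or a mean of at least 5 TPM, centring, rescaling over protein-coding entries, only the compared groups, all 72 libraries, NI Ctrl as the control, the set number as a block and leaving out each library. The interaction of time and biological replicate was chosen after seeing the data.

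The members and lists were chosen with earlier results of these data known. Genes were named by rule: rplp0, rplp1, rplp2 and rpsa; the 5 highest and 5 lowest in mean TPM; the 3 largest called rises and falls of each contrast; the 5 pairs furthest toward L and toward S; members that were not tested; and 3 snoRNA genes. Others named in lists were chosen after their values were seen. Promoter and protein sequences were not analysed here. Some members are counted in the totals but not reported here by name.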

Additional observations from a re-analysis of the deposited data

Results flagged for a closer look

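As for most tested genes, the change of many ribosomal protein genes from 5.5 to 7.5 hpf differed between the 2 biological replicates by a test of the interaction of time and frog (limma, Benjamini-Hochberg adjusted p under 0.05), which was chosen after seeing the data. In NI Ctrl and Kmt2b MO the share of members was below that of all genes. In NI Ctrl the difference was called for 60 of 133 members, 1 with a higher and 59 with a lower change in biological replicate 2, where 53% of all tested genes were called. In Ctrl MO it was called for 84 members, all lower (57.5% of all genes), in Cxxc1 MO for 97, all lower (53.5%), and in Kmt2b MO for 73, 2 higher and 71 lower (65.1%). The median difference of the members, biological replicate 2 minus 1, was -0.44, -0.61, -0.73 and -0.47 on the log2 scale, against -0.43, -0.46, -0.46 and -0.50 over all tested genes.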

How the results depend on the processing

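At 5.5 hpf 0 members were called lower under every alternative run, while the number called higher depended on the fit. In the main fits only 0.0153% (Cxxc1 MO) and 0.0512% (Kmt2b MO) of all tested genes were called lower, so the 0 is near that share. The median change of the members was positive in each frog, against NI Ctrl, on the protein-coding scale and with each library left out. For Cxxc1 MO at 5.5 hpf the 24 calls became 11 with no filter on low values, 13 with only the 2 groups compared, 10 with all 72 libraries, 1 in each frog alone and 8 against NI Ctrl, and 11 to 27 with 1 library left out. For Kmt2b MO the 40 calls became 24, 21, 19, 1, 1 and 18 in the same order, and 22 to 38. At 6.5 hpf the 10 calls of Cxxc1 MO became 6 with only the 2 groups, 2 with all 72 libraries, 0 and 1 in frogs 1 and 2 alone and 18 against NI Ctrl, and 6 to 9 with 1 library left out. The 26 of Kmt2b MO became 9 with all 72 libraries and 4 and 9 in the frogs alone, and 18 to 26. At 7.5 hpf the 8 calls of Cxxc1 MO became 13 with centring, 21 on the protein-coding scale, 0 with only the 2 groups, 5 with all 72 libraries, 0 in either frog alone and 19 against NI Ctrl, and 4 to 11. The 23 of Kmt2b MO became 48 on the protein-coding scale and 0 and 6 in the frogs alone, and 15 to 29. Ctrl MO against NI Ctrl gave 0 in each. Shares of all tested genes are given above for only some of the settings in this section. For the other settings, whether the member counts moved with those of all genes was not tested.

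From 5.5 to 7.5 hpf, centring gave 125, 125, 123 and 124 called members in NI Ctrl, Ctrl MO, Cxxc1 MO and Kmt2b MO, and the protein-coding scale 112, 114 and 110 in NI Ctrl, Cxxc1 MO and Kmt2b MO. In frog 2 alone falls outnumbered rises, with 64, 73, 84 and 77 calls. With 1 library left out the counts were 65 to 74, 74 to 85, 56 to 69 and 67 to 75, and the balance turned to falls only in Cxxc1 MO. For snoRNA genes inside members, a mean of at least 5 TPM gave 22, 28, 23 and 18 calls, centring gave 64 in Cxxc1 MO, frog 1 alone gave 16 in Cxxc1 MO and 22 in Kmt2b MO, and single libraries left out gave 40 to 48, 39 to 45, 35 to 42 and 27 to 36. Homeolog ratios gave 14 calls in Kmt2b MO of frog 1 alone, and 17 to 22, 14 to 17, 16 to 20 and 21 to 24 with 1 library left out. The cause of these shifts was not tested.

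As far as the labels tell, sets with the same number have only that number in common. Their deviations correlated from -0.253 to 0.346 (median 0.000106), over 0.1 in 15.7% of pairs. Sets with different numbers gave -0.372 to 0.258 (median -0.00302), over 0.1 in 8.33% of pairs. Whether sets were paired by number was not tested. A replicate block on the set number gave 26, 39, 13, 30, 8 and 20 calls for Cxxc1 MO and Kmt2b MO at 5.5, 6.5 and 7.5 hpf, 0 for Ctrl MO against NI Ctrl, and 68, 78, 63 and 71 over time. The 48 gene and comparison pairs named for the largest called rises and falls were also read under other settings. Of their 456 values 380 kept their call, 76 missed the threshold and 0 changed direction. These pairs were picked in the same fits for their large changes, which favours a kept direction. Genes named by other rules were not among them. TPM gives no read depth, so counting error is unknown.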
